A study of Mus musculus with 9 samples.

Results

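The 9 genes described here write and erase DNA methylation. They are the DNA methyltransferase genes Dnmt1, Dnmt3a and Dnmt3b, the cofactor genes Dnmt3l and Uhrf1, the dioxygenase genes Tet1, Tet2 and Tet3, and the glycosylase gene Tdg. They were chosen by symbol, and all 9 were found among the 55471 gene IDs of the count table. RNA was sequenced in 9 libraries from embryoid bodies (EBs) of the mouse, which are aggregates of differentiating embryonic stem (ES) cells. The EBs came from E-14 ES cells, were formed in hanging drops for 3 days and were then plated on gelatin for 3 days of in vitro differentiation. Wild-type (WT) EBs came from the parental line. Tnfaip2-/- (KO) EBs came from 1 CRISPR-Cas9 clone with a premature stop codon in exon 2 of Tnfaip2, so that a property of the clone and an effect of the genotype cannot be told apart. KO_PAPC EBs were EBs of the same clone given 8 µM palmitic acid (PA) and 8 µM palmitoyl-L-carnitine (PC), together PA/PC. The study's methods describe PA/PC together with MEF medium also while those EBs formed, and ES cell medium for the forming untreated EBs. If that holds for these libraries, medium and PA/PC cannot be told apart.

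Each group had 3 libraries, with total counts from 27362913 to 28914312. The study calls them biological replicates, but the labels do not say that they came from separate cultures, so p-values measure the spread between these libraries. The biological coefficient of variation lay between 2.09% and 2.65% in the 3 contrasts, and 70.6% to 81.8% of all tested genes passed the test in each contrast. No batch was given. Tnfaip2 had 6 to 16 counts in WT, 5 to 8 in KO and 14 to 25 in KO_PAPC libraries, too few to check the genotype, and a premature stop need not lower the RNA. The 8 general pluripotency markers were all over 1 CPM (counts scaled to a library total of 1000000) in every group, and summed to 3289 to 3333 CPM in WT, 3887 to 3933 in KO and 3816 to 3882 in KO_PAPC. They did not move together: 4 passed the test as higher and 3 as lower in KO against WT, and 5 and 3 in KO_PAPC against KO. These are bulk samples, in which fewer cells of a type and less RNA per cell cannot be told apart.

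Cytosine methylation at CG dinucleotides is copied to the new DNA strand after replication by Dnmt1, which Uhrf1 brings to hemimethylated sites. Dnmt3a and Dnmt3b set new methylation, and Dnmt3l, which has no catalytic activity of its own, stimulates both. The Tet enzymes oxidise 5-methylcytosine in a reaction that consumes 2-oxoglutarate, and Tdg excises the further oxidised bases for repair. Naive mouse ES cells are known for low DNA methylation, and the passage to the formative and primed epiblast is known for a rise of de novo methylation. No methylation was measured here: all values are RNA levels.

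Promoter windows are shown for 5 of the genes because CG dinucleotides are the sequence on which the gene products act, and the windows differed widely in them. Each window holds the 250 bases before a RefSeq transcript start (build GRCm38.p6), is written in the direction of the gene and overlaps no annotated exon. Capitals mark CG dinucleotides. The windows are those of Dnmt3b (chr2:153649199-153649448, plus strand), Dnmt3a (chr12:3806730-3806979, plus strand, the first of 3), Dnmt3l (chr10:78055085-78055334, plus strand, the third of 3), Uhrf1 (chr17:56304063-56304312, plus strand, the second of 2) and Tet2 (chr3:133544391-133544640, minus strand).
Dnmt3b: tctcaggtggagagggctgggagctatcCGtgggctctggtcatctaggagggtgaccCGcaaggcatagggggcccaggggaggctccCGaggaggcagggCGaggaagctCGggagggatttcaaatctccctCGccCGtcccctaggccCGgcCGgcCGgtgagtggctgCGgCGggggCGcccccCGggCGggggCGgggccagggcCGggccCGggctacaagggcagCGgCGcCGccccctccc
Dnmt3a: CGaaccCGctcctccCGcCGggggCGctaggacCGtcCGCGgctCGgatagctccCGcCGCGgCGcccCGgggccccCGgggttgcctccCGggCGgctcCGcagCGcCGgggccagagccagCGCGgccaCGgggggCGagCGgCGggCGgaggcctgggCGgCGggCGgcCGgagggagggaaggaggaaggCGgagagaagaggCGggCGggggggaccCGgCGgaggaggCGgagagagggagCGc
Dnmt3l: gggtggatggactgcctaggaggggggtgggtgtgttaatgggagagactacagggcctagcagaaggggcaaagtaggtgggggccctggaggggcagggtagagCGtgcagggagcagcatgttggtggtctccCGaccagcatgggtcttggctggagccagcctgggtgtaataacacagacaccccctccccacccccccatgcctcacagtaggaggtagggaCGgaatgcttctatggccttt
Uhrf1: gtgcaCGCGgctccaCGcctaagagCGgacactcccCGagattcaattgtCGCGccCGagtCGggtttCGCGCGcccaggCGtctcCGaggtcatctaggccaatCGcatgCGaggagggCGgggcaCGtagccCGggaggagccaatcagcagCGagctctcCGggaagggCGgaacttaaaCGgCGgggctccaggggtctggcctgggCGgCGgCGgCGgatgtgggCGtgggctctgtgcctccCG
Tet2: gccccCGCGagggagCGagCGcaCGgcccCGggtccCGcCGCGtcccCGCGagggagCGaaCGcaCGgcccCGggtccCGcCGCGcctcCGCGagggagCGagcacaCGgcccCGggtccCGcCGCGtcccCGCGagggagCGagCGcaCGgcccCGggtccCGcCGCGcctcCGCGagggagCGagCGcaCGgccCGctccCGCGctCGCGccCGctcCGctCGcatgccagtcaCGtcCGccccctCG
The Tet2 window held 51 CG dinucleotides, and 0.067% of the 32851 RefSeq windows held as many. The windows shown for Dnmt3a, Uhrf1 and Dnmt3b held 38, 30 and 21. The windows of Dnmt3a not shown held 40 and 15, and that of Uhrf1 held 10. The Dnmt3l window held 3, and its other windows held 5 and 4, below the median of 6 over all windows. Every window of Dnmt3l thus held fewer CG than any window of Dnmt3a or Dnmt3b. All 9 genes matched the RefSeq table, with 16 windows in all. The letters TTTCGCGC, a form of the E2F element, were searched for on both strands and stood in 0.256% of all windows. They occurred once in the Uhrf1 window shown and once in a window of Dnmt1 (chr9:20952624-20952873, minus strand), which overlaps 166 bases of exon and is not printed. These windows held 30 and 26 CG, and the share of 0.256% was not taken among windows of like CG content. The related TTTGGCGC and TTTCCCGC, in 0.417% and 0.895% of all windows, were in no window of the 9 genes. A match is a description of the letters and says nothing of binding.

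The 9 genes were present in all libraries, at levels that spanned more than an order of magnitude per length. Levels between genes are given as CPM per kilobase (kb) of exon, on library totals. In WT EBs the order was Uhrf1 at 76.6 ± 0.623 CPM per kb (SD, n = 3), Dnmt1 at 44.9 ± 1.68, Dnmt3b at 42.7 ± 0.644, Dnmt3l at 39.1 ± 0.421, Tet1 at 22.7 ± 0.823, Dnmt3a at 20.1 ± 0.181, Tet2 at 5.17 ± 0.0469, Tet3 at 2.38 ± 0.0518 and Tdg at 0.420 ± 0.0447. In KO EBs Uhrf1 (60.6 ± 0.855 CPM per kb) and Dnmt1 (52.5 ± 0.438) again led, and Dnmt3l (36.7 ± 0.551) stood above Dnmt3b (29.4 ± 0.270). Tet1 at 24.1 ± 0.485, Dnmt3a at 12.6 ± 0.150, Tet2 at 8.52 ± 0.0524, Tet3 at 1.59 ± 0.0551 and Tdg at 0.583 ± 0.0437 CPM per kb followed. In KO_PAPC EBs Dnmt3b was first at 121 ± 1.97 CPM per kb, above Uhrf1 at 108 ± 1.37. Dnmt1 at 46.6 ± 1.88, Dnmt3a at 34.8 ± 0.327, Dnmt3l at 25.9 ± 0.798, Tet1 at 18.9 ± 0.795, Tet2 at 4.92 ± 0.104, Tet3 at 2.26 ± 0.0791 and Tdg at 0.451 ± 0.0212 CPM per kb came after them. No 2 neighbours in the order overlapped between libraries of any group. The order depended on the gene length used: with the longest coding transcript in place of all exons, Dnmt3l stood second in WT at 64.1 CPM per kb, and Dnmt3a at 59.8 passed Dnmt1 at 58.6 in KO_PAPC. The level of Tdg is an underestimate, because 40.9% of the 51-base words of its transcripts, the length of a read, also occur in other annotated transcripts such as Tdg-ps, Gm9855 and Gm5597, and reads with several places were not counted. Over its unshared words alone, Tdg stood at 0.687 CPM per kb in WT, with 0.954 in KO and 0.737 in KO_PAPC, and was lowest of the 9 by this measure too. Copies outside the annotation were not looked at, and Gm9855 alone had 304 to 361 counts, more than Tdg. The last place of Tdg is therefore not secured.

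**Figure D1:**
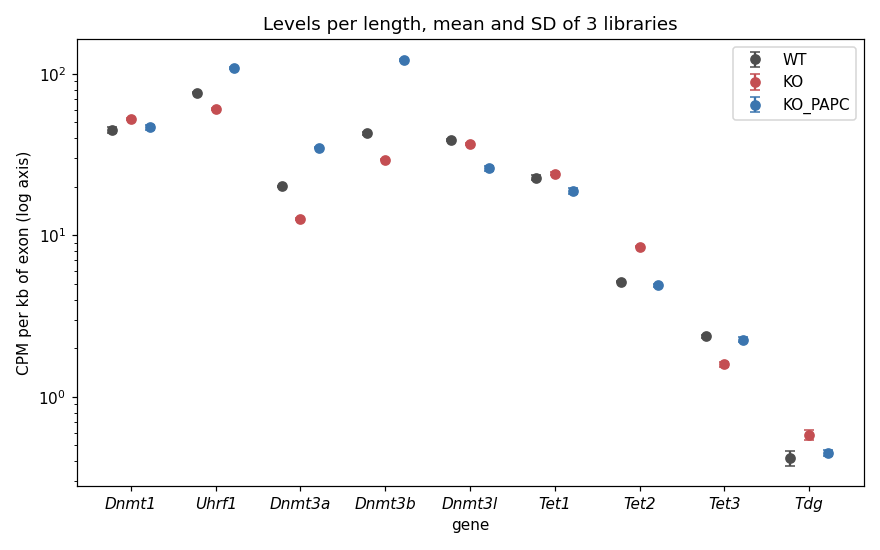
Level of each gene in CPM per kb of exon (log axis) in WT, KO and KO_PAPC EBs. Points are means and bars the SD of 3 libraries. Dnmt3b moved from 42.7 CPM per kb in WT and 29.4 in KO to 121 in KO_PAPC, the highest level of the 9 genes there.

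The first comparison, KO against WT EBs, asks which of the genes differ with the Tnfaip2 genotype. The de novo methyltransferase genes Dnmt3a and Dnmt3b and the dioxygenase gene Tet3 were lower in KO EBs, and Tet2 was higher. Uhrf1 fell while its partner Dnmt1 rose. By edgeR's quasi-likelihood test (Benjamini-Hochberg adjusted p under 0.05 over all genes, which is what "called" means here), 4 of the 9 genes were called higher and 5 lower. Of all 17355 genes tested, 73.8% were called, 36.8% higher and 37.1% lower, so that 9 calls of 9 genes stand close to a background that is itself high. None changed by 2-fold, as 15.8% of all tested genes did. The median absolute log2 fold change was 0.47 for the 9 genes and 0.36 for all genes. The groups did not overlap for 8 of the 9 genes, the exception being Tet1, beside 75.1% of all genes.

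The second comparison, KO_PAPC against KO EBs, asks what PA/PC changes in the knockout. Dnmt3b, Dnmt3a, Uhrf1 and Tet3 rose, and Dnmt3l, Tet1 and Tet2 fell. These were 7 of the 9 genes, beside 81.8% of 17167 genes (39.6% higher and 42.2% lower). Dnmt1 and Tdg were not called. The median absolute log2 fold change was 0.63, beside 0.54 for all genes. Dnmt3b, Dnmt3a and Uhrf1, 3 of 9, changed by 2-fold or more, as did 27.8% of all genes. The groups did not overlap for 8 genes, all but Dnmt1, beside 82.2% of all genes.

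The third comparison, KO_PAPC against WT EBs, asks where the treated knockout stands relative to the wild type. Dnmt1, Dnmt3a, Dnmt3b, Uhrf1 and Tet2 were called higher and Dnmt3l and Tet1 lower, 7 of 9 beside 70.6% of 16655 genes (34.2% higher and 36.4% lower). Tet3 and Tdg were not called. Dnmt3b alone of the 9 changed by 2-fold, as did 13.7% of all genes, and the median absolute log2 fold change was 0.27, beside 0.33. The groups did not overlap for 8 genes, all but Tet1, beside 72.6% of all genes. The 3 comparisons share libraries, so their values are given side by side and are not independent.

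**Figure D2:**
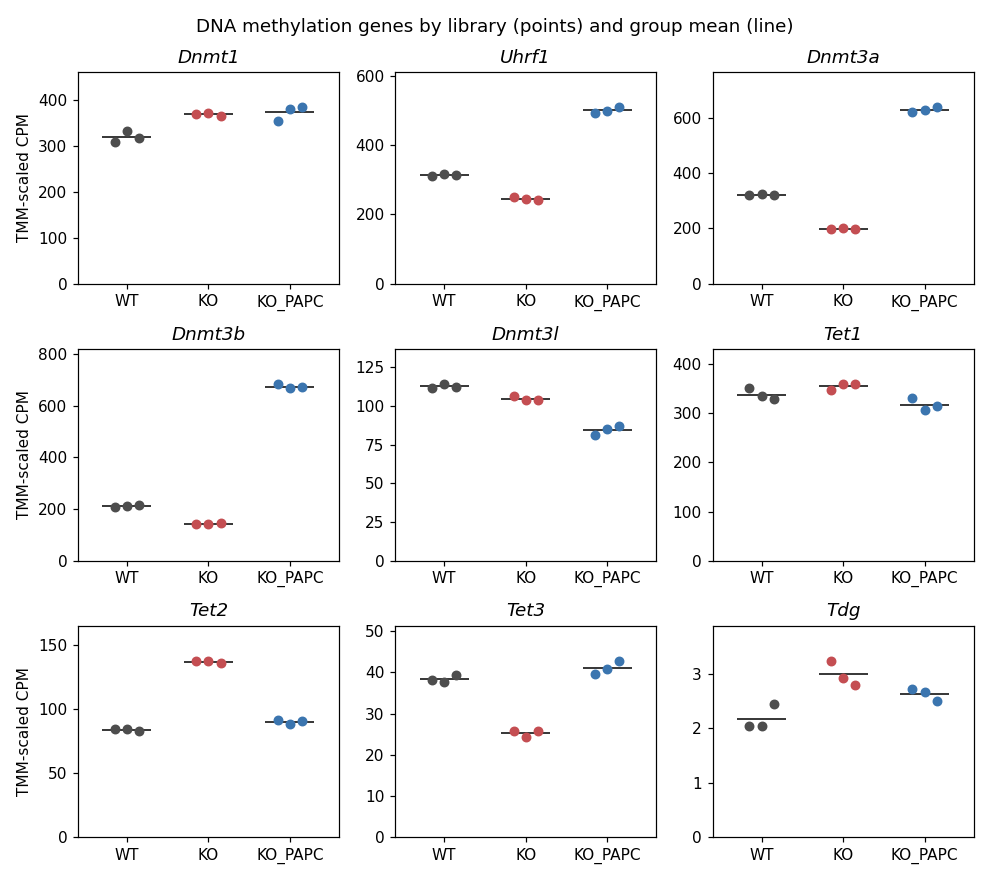
Scaled CPM (library sizes corrected by TMM) of the 9 genes in each library, replicates 1 to 3 from left to right, with a line at the group mean and each axis starting at 0. Dnmt3a, Dnmt3b, Uhrf1 and Tet3 were lowest in the KO libraries, and Tet2 was highest there.

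Dnmt1, the maintenance methyltransferase (ENSMUSG00000004099, chr9:20907209-20959888, minus strand), had 309, 333 and 317 scaled CPM in the WT libraries, against 371, 372 and 365 in KO and 355, 381 and 385 in KO_PAPC. All KO and KO_PAPC libraries lay above all WT libraries, and KO and KO_PAPC overlapped. The log2 fold change was 0.22 ± 0.0245 (SE) in KO against WT (edgeR's quasi-likelihood test, adjusted p = 5.66e-10) and 0.22 ± 0.0320 in KO_PAPC against WT (adjusted p = 1.57e-06). Between KO_PAPC and KO it was -0.0060 ± 0.0270 (95% confidence interval -0.059 to 0.047, adjusted p = 0.842 by edgeR). On library totals instead of TMM scaling, which shifts the median of all genes by -0.17 against KO and -0.16 against WT, Dnmt1 was called lower in KO_PAPC than in KO (-0.17) and was not called against WT (0.052).

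Uhrf1, which binds hemimethylated CG and brings Dnmt1 to it (ENSMUSG00000001228, chr17:56303321-56323486, plus strand), had 312, 318 and 313 scaled CPM in WT, against 249.7, 246 and 242 in KO and 493, 499.5 and 509.7 in KO_PAPC. The 3 groups were fully separate, with KO lowest and KO_PAPC highest. Uhrf1 fell by 0.34 ± 0.0232 (log2, SE) in KO against WT (edgeR adjusted p = 6.04e-15). It rose 2.00-fold in KO_PAPC over KO (log2 fold change 1.0 ± 0.0253, edgeR adjusted p = 3.31e-29) and 1.58-fold over WT (0.66 ± 0.0262, edgeR adjusted p = 4.53e-17). Of the 51-base words of its transcripts, 15.1% also occur in other genes, mainly Gm5648, which had 4 to 18 counts. The ratio of Uhrf1 to Dnmt1, taken per length within each library, was 1.75, 1.65 and 1.71 in WT, 1.17, 1.15 and 1.15 in KO and 2.41, 2.27 and 2.29 in KO_PAPC. The 3 groups did not overlap in this ratio.

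Dnmt3a, a de novo methyltransferase (ENSMUSG00000020661, chr12:3806007-3914443, plus strand), had 320, 326 and 321 scaled CPM in WT, against 197, 202 and 199.8 in KO and 622, 629.9 and 639 in KO_PAPC. The groups were separate by margins far wider than the spread within each. Dnmt3a was 1.6-fold lower in KO than in WT (log2 fold change -0.67 ± 0.0235, edgeR adjusted p = 4.07e-23). It was 3.10-fold higher in KO_PAPC than in KO (1.63 ± 0.0252, edgeR adjusted p = 7.17e-36) and 1.94-fold higher than in WT (0.96 ± 0.0258, edgeR adjusted p = 1.89e-20). The gene has 13 annotated coding transcripts from several starts, including the short form that starts inside the gene, and gene counts do not separate them.

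Dnmt3b, the other de novo methyltransferase (ENSMUSG00000027478, chr2:153649450-153687730, plus strand), moved the most of the 9 genes in both contrasts of KO_PAPC. It had 207, 212 and 213 scaled CPM in WT, against 142, 143 and 144 in KO and 683, 666 and 671 in KO_PAPC. The lowest KO_PAPC library lay above the highest WT library by a factor of more than 3. Dnmt3b was 1.45-fold lower in KO than in WT (log2 fold change -0.54 ± 0.0255, edgeR adjusted p = 2.03e-19), 4.63-fold higher in KO_PAPC than in KO (2.21 ± 0.0261, edgeR adjusted p = 2.11e-39) and 3.18-fold higher than in WT (1.67 ± 0.0271, edgeR adjusted p = 8.86e-25). Among all tested genes, its absolute change stood at percentile 90.5 against KO and 93.8 against WT. Its paralog Dnmt3c, which shares 9.63% of the words of Dnmt3b, had 1 to 6 counts.

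Dnmt3l, the catalytically inactive stimulator of both (ENSMUSG00000000730, chr10:78041947-78063622, plus strand), did not follow them. It had 111, 114 and 112 scaled CPM in WT, against 107, 104 and 104 in KO and 81.1, 85.0 and 86.8 in KO_PAPC. The groups did not overlap, and KO_PAPC was lowest. The log2 fold change was -0.088 ± 0.0286 in KO against WT (edgeR adjusted p = 0.00638), -0.34 ± 0.0330 in KO_PAPC against KO (edgeR adjusted p = 1.47e-11) and -0.43 ± 0.0342 against WT (edgeR adjusted p = 4.53e-11). Dnmt3l overlaps the antisense gene Aire over 2.24% of its exon length, and strand was not recorded. Aire was called in all 3 contrasts, at -1.05, 0.52 and -0.52 in the same order, and had at most 515 counts where Dnmt3l had 2080 to 3287.

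**Figure D3:**
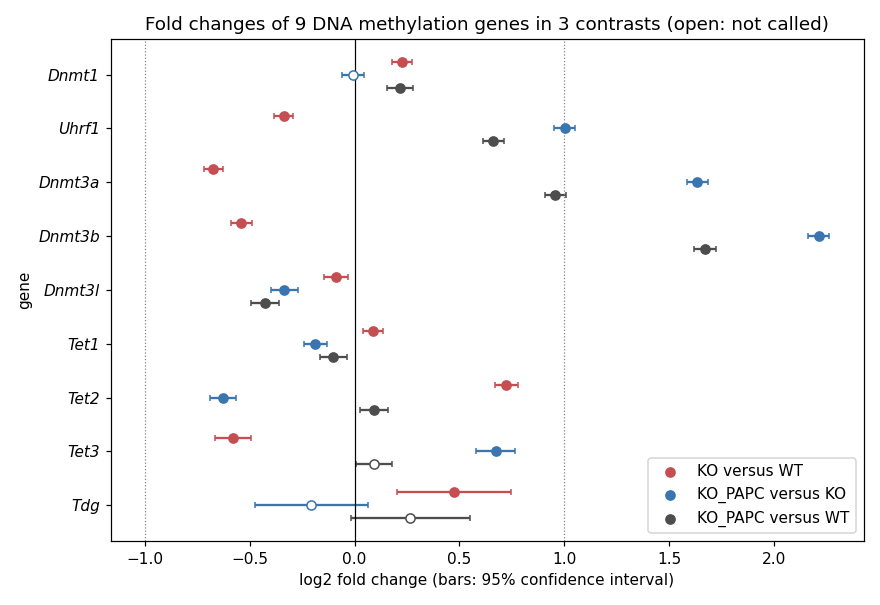
Log2 fold change of each gene in the 3 contrasts with its 95% confidence interval. Filled points were called and open points were not, and dotted lines mark a 2-fold change. Dnmt3b and Dnmt3a lie farthest to the right in KO_PAPC against KO, at 2.21 and 1.63.

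Within the libraries, the balance among the de novo genes moved with the groups. Ratios within a library do not depend on its scaling. Dnmt3b stood to Dnmt3a, per length, at 2.10, 2.11 and 2.16 in WT, 2.35, 2.30 and 2.35 in KO and 3.58, 3.45 and 3.42 in KO_PAPC. Dnmt3l stood to Dnmt3a at 1.94, 1.95 and 1.95 in WT, 3.01, 2.86 and 2.89 in KO and 0.726, 0.752 and 0.757 in KO_PAPC. Dnmt3l was thus above Dnmt3a in every untreated library and below it in every treated one. Of the summed length-scaled level of Dnmt1, Dnmt3a, Dnmt3b and Dnmt3l, Dnmt3b made up 29.1% ± 0.400 (SD, n = 3) of the WT, 22.4% ± 0.291 of the KO and 53.0% ± 1.09 of the KO_PAPC total. Dnmt1 made up 30.6%, 40.0% and 20.4%, and Dnmt3l 26.6%, 28% and 11.3%. Shares and ratios between genes depend on the gene length used, as the order of levels did. With the longest coding transcript, Dnmt3l was the largest of these parts in WT, at 64.1 CPM per kb against 56.5 for Dnmt1 and 50.5 for Dnmt3b.

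Tet1, the most abundant of the dioxygenase genes (ENSMUSG00000047146, chr10:62804570-62908996, minus strand), had 351, 335 and 329 scaled CPM in WT, against 348, 360.1 and 359.7 in KO and 331, 306 and 315 in KO_PAPC. WT overlapped with both other groups, and KO lay above KO_PAPC in every library. Its log2 fold changes were 0.089 ± 0.0247 in KO against WT (edgeR adjusted p = 0.00168), -0.19 ± 0.0277 in KO_PAPC against KO (edgeR adjusted p = 1.45e-07) and -0.10 ± 0.0327 against WT (edgeR adjusted p = 0.00827). The first of these calls was lost without WT replicate 3 (edgeR adjusted p = 0.0507), and the last without KO_PAPC replicate 2 (0.0566) or WT replicate 1 (0.0648) and by DESeq2 (0.0601). On library totals the values of KO_PAPC were -0.35 against KO and -0.27 against WT.

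Tet2, which lacks the CXXC DNA-binding domain of the other two (ENSMUSG00000040943, chr3:133463679-133545139, minus strand), had 84.2, 84.7 and 83.2 scaled CPM in WT, against 138, 137 and 136 in KO and 91.6, 88.2 and 91.0 in KO_PAPC. KO was far above both other groups, which did not overlap either. Tet2 rose 1.65-fold in KO over WT (log2 fold change 0.72 ± 0.0284, edgeR adjusted p = 1.23e-21) and fell by 0.63 ± 0.0309 on the log2 scale in KO_PAPC against KO (edgeR adjusted p = 3.98e-20). Against WT, KO_PAPC was higher by 0.095 ± 0.0342 (edgeR adjusted p = 0.0165). That small difference was not called without KO_PAPC replicate 3 (edgeR adjusted p = 0.055) or WT replicate 3 (0.0747), and on library totals it was -0.070.

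Tet3, the family member best known from the oocyte and the nervous system (ENSMUSG00000034832, chr6:83362373-83459084, minus strand), had 38.1, 37.6 and 39.3 scaled CPM in WT, against 25.8, 24.3 and 25.9 in KO and 39.6, 40.8 and 42.8 in KO_PAPC. KO was lowest, and WT and KO_PAPC lay next to each other without overlap. Tet3 was 1.49-fold lower in KO than in WT (log2 fold change -0.58 ± 0.0448, edgeR adjusted p = 1.36e-13) and 1.59-fold higher in KO_PAPC than in KO (0.67 ± 0.0474, edgeR adjusted p = 1.65e-15). KO_PAPC differed from WT by 0.092 ± 0.0441 (95% confidence interval 0.0053 to 0.18), which was not called (edgeR adjusted p = 0.0669), and without KO_PAPC replicate 1 it was (0.12, edgeR adjusted p = 0.0297). On library totals the difference was -0.073.

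Tet2 and Tet3 moved in opposite directions in KO against WT, and again in KO_PAPC against KO. The ratio of Tet1 to Tet2, per length, had a geometric mean of 4.39 in WT, 2.83 in KO and 3.84 in KO_PAPC, and that of Tet1 to Tet3 was 9.54, 15.2 and 8.35. Tet1 made up 70.5% to 75% of the summed length-scaled Tet level in the 3 groups, while Tet2 made up 17.1% in WT, 24.9% in KO and 18.9% in KO_PAPC. The summed de novo genes Dnmt3a and Dnmt3b stood to the summed Tet genes at 1.99, 2.11 and 2.14 in WT, 1.23, 1.22 and 1.22 in KO and 5.86, 6.12 and 5.99 in KO_PAPC. The KO_PAPC ratio was 4.89 times that of KO and 2.88 times that of WT. In all 18 comparisons of 6 ratios the groups did not overlap, and the two-sided exact permutation test gave p = 0.1 for each (adjusted p = 0.1 over the 18), the smallest value that 3 against 3 libraries can give.

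**Figure D4:**
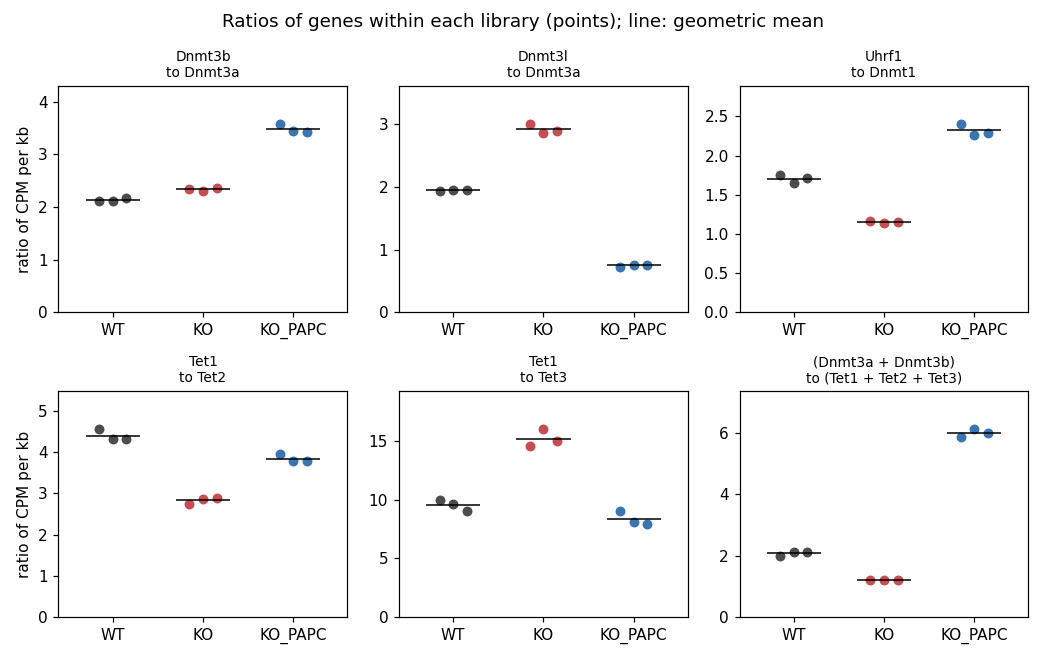
Ratios of levels in CPM per kb within each library, replicates 1 to 3 from left to right, with a line at the geometric mean and each axis starting at 0. The ratio of Dnmt3a and Dnmt3b to the 3 Tet genes was near 2 in WT, near 1.2 in KO and near 6 in KO_PAPC libraries.

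Tdg, the glycosylase that removes oxidised methylcytosine (ENSMUSG00000034674, chr10:82629828-82650799, plus strand), is the least certain of the 9. It had 2.04, 2.05 and 2.45 scaled CPM in WT, against 3.24, 2.93 and 2.80 in KO and 2.73, 2.66 and 2.51 in KO_PAPC, from 59 to 97 counts per library. KO lay above both other groups and KO_PAPC above WT, by small margins. The log2 fold change was 0.47 ± 0.138 in KO against WT (edgeR adjusted p = 0.00259), -0.21 ± 0.137 in KO_PAPC against KO (95% confidence interval -0.47 to 0.062, edgeR adjusted p = 0.162) and 0.27 ± 0.145 against WT (-0.018 to 0.55, edgeR adjusted p = 0.105). DESeq2 did not call the first (adjusted p = 0.0509), and on library totals edgeR called the second (-0.37, adjusted p = 0.0128) and gave 0.10 for the third (adjusted p = 0.543). Gm9855, which shares words with Tdg, had 304 to 361 counts, more than Tdg itself, and 6.83% of the Tdg exon length overlaps Glt8d2 on the other strand.

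Markers of cell state moved with the same groups, and their part in the changes was not tested. The 11 naive markers summed to 1199 to 1245 CPM in WT, 2297 to 2326 in KO and 793 to 807 in KO_PAPC libraries, with none at 0. In KO against WT 10 of them were called higher and 1 lower, and in KO_PAPC against KO all 11 were called lower. The list of formative or primed epiblast markers counts Dnmt3a and Dnmt3b among its genes, and its 8 other genes summed to 645 to 651 CPM in WT, 487 to 493 in KO and 1039 to 1056 in KO_PAPC. Of these 8, 1 was called higher and 6 lower in KO against WT, and all 8 were called higher in both contrasts of KO_PAPC. The 10 endoderm markers summed to 1549 to 1640 CPM in WT, 850 to 861 in KO and 192 to 194 in KO_PAPC, and the 8 neuroectoderm markers to 209 to 217, 129 to 136 and 303 to 306. Endoderm calls in KO against WT were 2 higher (Afp and Ttr) and 8 lower, and all 10 were lower in both contrasts of KO_PAPC. Neuroectoderm calls in KO against WT were 2 higher (Map2 and Tubb3) and 5 lower of 7 tested. In KO_PAPC, 7 of 8 were higher against KO and all 8 against WT. The 9 two-cell-like markers summed to 7.08 to 7.44, 129 to 133 and 0.179 to 0.648. The 8 trophoblast markers summed to 98.1 to 99.6, 337 to 345 and 52.5 to 53.4 CPM, and 1 of them, Tfap2c, made most of the difference between KO and WT, with 280.4 ± 3.36 against 52.0 ± 0.746 scaled CPM (SD, n = 3). Of the 7 tested in KO against WT, 3 were called higher and 2 lower, with a median log2 fold change of -0.076. The 10 primitive streak and mesoderm markers summed to 118 to 125, 100.4 to 104 and 60.2 to 62.7 CPM but did not move together. In KO_PAPC against KO 4 of 9 tested were called higher (T, Mixl1, Eomes and Tbx6) and 5 lower, among them Gata4 and Pdgfra. T, the early mesoderm gene also called Brachyury, had 1.84 ± 0.203 scaled CPM in WT, against 0.278 ± 0.103 in KO and 16.8 ± 1.19 in KO_PAPC. These marker genes were named after their values were seen. The 10 fibroblast markers summed to 19.7 to 22.4, 22.2 to 23.4 and 18.6 to 19.9 CPM, with 1 of them at 0 in each group, not the same gene in all. These near-equal sums hide changes of single genes. Of 6 tested in KO_PAPC against WT, 5 were called higher and 1 lower, and of 6 tested against KO, 3 and 1.

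The genes that work beside the 9 were taken as 8 lists of 153 genes in all. Lists and marker sets share some genes, so they are not independent of each other. Pcna stands in both the maintenance and the proliferation list, Prdm14 and Dppa3 are also naive markers, and Zscan4f is also a two-cell-like marker. Zfp42 of the germline list is also a general pluripotency marker. Among the marker sets, Pdgfra stands with both mesoderm and endoderm, and Hand1 with both mesoderm and trophoblast. The partners of maintenance methylation moved toward higher levels in KO_PAPC: of 12, 5 were called higher and 6 lower in KO against WT, 9 higher and 2 lower in KO_PAPC against KO, and 10 higher and 2 lower in KO_PAPC against WT. Their median log2 fold changes were -0.013, 0.44 and 0.42, beside -0.0059, -0.017 and -0.017 for all genes. Cdca7, which activates the remodeller Hells, had 174 ± 2.17 scaled CPM (SD, n = 3) in WT, against 164 ± 1.41 in KO and 301 ± 6.38 in KO_PAPC. Its relative Cdca7l had 33.3 ± 1.2, 19.2 ± 0.167 and 57.1 ± 1.01, and 20.7% of its words occur in other transcripts. Uhrf2, the relative of Uhrf1, moved like Uhrf1 in direction, with 153 ± 5.05, 115 ± 1.61 and 200.2 ± 1.86. Usp7, which deubiquitinates Dnmt1 and Uhrf1, had 372 ± 2.56, 439.6 ± 1.99 and 446 ± 5.55, so that, as for Dnmt1, both contrasts against WT were called higher and KO_PAPC against KO was not. Pcna, the replication clamp, had 147 ± 2.76, 149.7 ± 4.55 and 227 ± 1.54. Zfp57, which keeps methylation at imprinted regions, fell in each contrast, from 397 ± 3.17 over 359 ± 3.02 to 268 ± 1.15. The other gene of the list called lower in both contrasts of KO_PAPC was Paf1, at -0.22 and -0.10. Paf1 is a gene of transcription elongation, and the list counts it without a known part in maintenance.

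The proliferation list, part of which is tied to the replication machinery that Dnmt1 and Uhrf1 follow, also stood higher in KO_PAPC. It holds 26 genes. In KO against WT 7 of them were called higher and 12 lower (median -0.039). In KO_PAPC, 21 were called higher and 5 lower against KO, and 24 higher and 1 lower against WT (medians 0.47 and 0.43). Of all genes, 39.6% and 34.2% were called higher in these contrasts of KO_PAPC. The median absolute log2 fold change against KO was 0.47 for the list and 0.54 for all genes. Mcm5, a subunit of the replicative helicase, had 629 ± 15.2 scaled CPM in WT, against 473 ± 6.29 in KO and 934 ± 22 in KO_PAPC, and its partner Mcm6 had 348 ± 5.16, 325 ± 2.89 and 578 ± 9.72. Rrm2, a subunit of ribonucleotide reductase, had 225 ± 3.17, 210.2 ± 1.10 and 373 ± 4.43, and the licensing factor Cdt1 had 207 ± 13.1, 151 ± 1.40 and 347 ± 16.2. Gins2, of the GINS complex, had 89.4 ± 3.81, 51.5 ± 1.36 and 119 ± 5.83, with 65.4% of its words in other transcripts. Ccne1 and Cdc6, which act at the entry to S phase, were among the 7 genes called higher in KO against WT. They were also among the 5 called lower in KO_PAPC against KO. Both were higher in KO than in WT (log2 fold changes 0.83 and 0.56) and lower in KO_PAPC than in KO (-0.32 and -0.30). Like most of the list, both were called higher in KO_PAPC against WT (0.51 and 0.26). The other genes called lower in KO_PAPC against KO were Top2a (-0.10), E2f2 (-0.20) and Birc5 (-0.32), and E2f2 (-0.77) was the one called lower against WT.

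In both contrasts of KO_PAPC, the germline list had the median farthest from 0 among the 8. It holds 30 genes, most of them of germ cells and meiosis, a class known for promoters that DNA methylation keeps silent in somatic cells. In KO against WT 15 were called higher and 11 lower (median 0.13). In KO_PAPC against KO 27 were called lower and 2 higher (median -1.73), and in KO_PAPC against WT 28 were called lower and 0 higher (median -1.40). Of all genes, 42.2% and 36.4% were called lower in these contrasts. Dazl, an RNA-binding protein of germ cells, had 73.4 ± 4.03 scaled CPM in WT, against 65.5 ± 5.43 in KO and 6.46 ± 0.164 in KO_PAPC. Rhox5, an X-linked homeobox gene, had 60.7 ± 1.34, 55.6 ± 2.58 and 6.39 ± 0.142. Tuba3a, a testis alpha-tubulin, had 37.8 ± 1.35, 140.0 ± 3.88 and 2.49 ± 0.283, with 34.5% of its words in other transcripts. Zfp42 and Mov10 are on this list without being germline genes in the strict sense: Zfp42 is a marker of naive ES cells and had 243 ± 0.848, 484 ± 5.14 and 136 ± 1.53, and Mov10 is an RNA helicase and had 120.1 ± 2.59, 249.97 ± 2.80 and 84.3 ± 2.62. The exceptions in KO_PAPC against KO were Ddx4 (1.0 ± 0.0587) and Tdrd1 (0.73 ± 0.110), called higher, and Sycp3 (-0.00036 ± 0.0743), not called. Against WT, Sycp3 (-0.038) and Tdrd1 (-0.017) were not called.

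The list of de novo methylation regulators and partners, which also holds genes with other main roles, was mixed. Of 16, 8 were called higher and 7 lower in KO against WT, 8 and 8 in KO_PAPC against KO, and 10 and 4 in KO_PAPC against WT (medians 0.081, 0.0072 and 0.15). Prdm14, which represses Dnmt3b in naive ES cells, had 30.7 ± 1.72 scaled CPM in WT, against 65.0 ± 0.396 in KO and 12.4 ± 0.677 in KO_PAPC, the reverse of the order of Dnmt3a and Dnmt3b. Dppa3, which binds Uhrf1, had 11.2 ± 0.424, 34.9 ± 1.88 and 3.94 ± 0.272, and Prdm1, a repressor needed for germ cell specification, had 16.2 ± 0.889, 27.6 ± 0.682 and 5.66 ± 0.396. In KO_PAPC against WT these 3 and Zscan4f were the 4 genes called lower. Zscan4f, a gene of the two-cell-like state, had 0.530 ± 0.0578 scaled CPM in WT and 9.71 ± 0.616 in KO, with 86.6% of its words in other transcripts. Ehmt2, a histone H3 lysine 9 methyltransferase, had 161 ± 5.97, 94.0 ± 0.367 and 197 ± 3.93, Kdm1a, a histone demethylase, had 318 ± 3.44, 281 ± 5.34 and 442 ± 1.21, and Rlim, a ubiquitin ligase, had 297 ± 4.07, 480.3 ± 14.3 and 326 ± 14.5.

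The reader and CXXC list holds 13 genes: methyl-CpG readers, their relatives and CXXC genes, not all of which bind methylated CG. Of these 13, 4 were called higher and 9 lower in KO against WT (median -0.30). In KO_PAPC it was 6 and 5 against KO (0.072) and 4 and 4 against WT (-0.035). Mbd3, a subunit of the NuRD complex, had 215 ± 10.9 scaled CPM in WT, against 150.3 ± 3.57 in KO and 297 ± 9.99 in KO_PAPC. The CXXC genes Cxxc5 (106 ± 1.51, 67.4 ± 2.10 and 131 ± 2.04) and Kdm2b (82.4 ± 2.82, 55.9 ± 1.47 and 107 ± 4.60) had the same order of groups. Zbtb4, a zinc finger reader, had 8.78 ± 0.691, 6.72 ± 0.791 and 3.75 ± 0.0884.

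Base excision repair and other demethylation genes went both ways: of 20, 7 were called higher and 8 lower in KO against WT, and 9 and 9 in KO_PAPC against KO. In KO_PAPC against WT it was 7 and 9 of 19 tested. The medians were -0.031, -0.054 and -0.061. On library totals more were lower than higher, 6 higher and 11 lower in KO_PAPC against KO and 4 and 12 against WT. Lig3, the DNA ligase of this pathway, had 41.8 ± 0.705 scaled CPM in WT, against 85.8 ± 1.45 in KO and 40.3 ± 0.190 in KO_PAPC. Of the words of Lig3, 23.8% occur in other transcripts. Gadd45a, a stress-induced gene, had 115 ± 1.14, 182 ± 5.56 and 78.8 ± 0.543. Gadd45g, its relative, had 4.56 ± 0.279, 5.03 ± 0.568 and 13.7 ± 0.603. The uracil glycosylase gene Smug1 had 25.5 ± 1.17, 14.6 ± 0.715 and 21.5 ± 0.799, and the endonuclease gene Apex1 had 57.2 ± 0.938, 56.3 ± 1.24 and 101 ± 3.45, with 51.5% of its words in other transcripts.

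The donors and cofactors of the 9 enzymes were also read. Of 17 genes of S-adenosylmethionine supply, the methyl donor of the Dnmt enzymes, 4 were called higher and 7 lower of 16 tested in KO against WT, 6 and 4 of 15 in KO_PAPC against KO, and 7 and 4 of 14 in KO_PAPC against WT (medians -0.097, 0.060 and 0.10). On library totals the balance turned, to 5 higher and 8 lower in KO_PAPC against KO and 4 and 6 against WT. Tdh, threonine dehydrogenase, which feeds one-carbon metabolism in mouse ES cells, had 178 ± 1.62 scaled CPM in WT, against 398 ± 3.11 in KO and 192 ± 6.04 in KO_PAPC. The serine hydroxymethyltransferase gene Shmt2 had 295 ± 6.87, 146 ± 4.17 and 245 ± 4.69, and its cytosolic relative Shmt1 had 147 ± 0.899, 184 ± 3.39 and 216 ± 5.38. Mat2b, a regulatory subunit of methionine adenosyltransferase, had 124 ± 3.44, 104 ± 2.94 and 179.9 ± 2.16, and Mtrr, methionine synthase reductase, had 39.2 ± 1.18, 21.5 ± 0.820 and 46.0 ± 0.875. Bhmt2, a low gene, had 2.43 ± 0.142, 0.549 ± 0.203 and 0.196 ± 0.0381.

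Of 20 genes of 2-oxoglutarate and Tet cofactor metabolism, 11 were called higher and 6 lower in KO against WT (median 0.16), and 6 and 12 in each of the contrasts of KO_PAPC (medians -0.14 against KO and -0.25 against WT). Slc23a2, an ascorbate transporter, had 62.8 ± 0.346 scaled CPM in WT, against 131 ± 3.48 in KO and 45.3 ± 0.837 in KO_PAPC. Slc2a1, a glucose transporter that also takes up oxidised ascorbate, had 1588 ± 39.1, 877 ± 18.0 and 2780.5 ± 73.3. Idh2, mitochondrial isocitrate dehydrogenase, had 272 ± 7.32, 346 ± 7.56 and 190.4 ± 5.51. Psat1 and Gpt2, transaminases that yield 2-oxoglutarate from glutamate, were lower in both knockout groups, with 533 ± 6.98, 258 ± 3.97 and 247 ± 6.75 for Psat1 and 93.4 ± 2.35, 41.3 ± 0.520 and 44.1 ± 0.575 for Gpt2.

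TMM scaling set these medians. On library totals, where the median of all genes was -0.18 in both contrasts of KO_PAPC, the partners of maintenance (0.27 and 0.25) and the proliferation list (0.30 and 0.26) stayed above 0 and the germline list (-1.89 and -1.57), the 2-oxoglutarate list (-0.31 and -0.41) and the repair list (-0.22 and -0.23) below it. The median of the reader and CXXC list changed sign in KO_PAPC against KO (-0.094). Those of the de novo regulators (-0.16 and -0.020) and S-adenosylmethionine supply (-0.11 and -0.062) changed sign in both contrasts. The counts moved with them on library totals. Of the reader and CXXC list, 6 were called higher and 7 lower in KO_PAPC against KO, and 3 and 9 against WT. Of the de novo regulators, 7 were called higher and 9 lower against KO, and 6 and 6 against WT. Of the 2-oxoglutarate list, 3 were called higher and 14 lower against KO and 5 and 14 against WT.

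**Figure D5:**
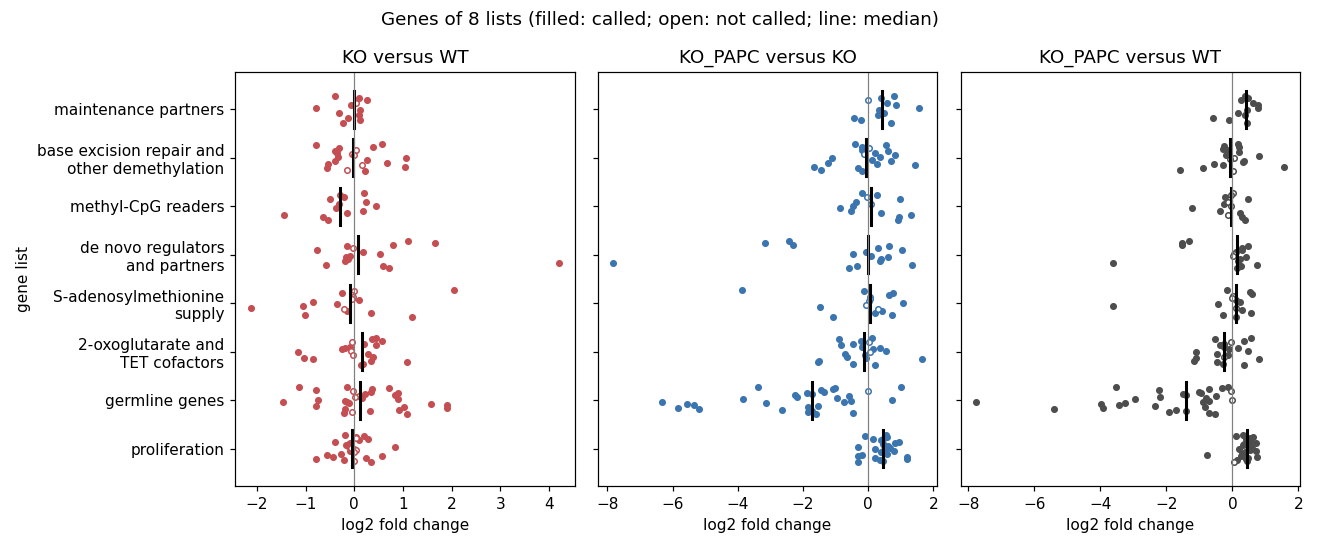
Log2 fold change of every tested gene of the 8 lists in the 3 contrasts. Filled points were called, open points were not, and black lines mark list medians. The germline list lies to the left of 0 in both contrasts of KO_PAPC, with medians of -1.73 and -1.40, and the horizontal scales differ between panels.

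The genes most like each of the 9 over the 9 libraries were found by the distance of centred log2(CPM + 1) among 9783 genes of at least 10 CPM on average. Nearest to Dnmt3b were Pou3f1, a transcription factor of the formative epiblast, at a distance of 0.276, and Myb at 0.325. Pou3f1 had 22.9 ± 1.26 scaled CPM in WT, against 17.4 ± 0.843 in KO and 82.7 ± 2.16 in KO_PAPC. Nearest to Dnmt3a was Id3, an inhibitor of helix-loop-helix factors (23.5 ± 0.114, 14.4 ± 0.124 and 45.7 ± 2.00), at 0.113. Eif4b and Rnaseh2a were nearest to Uhrf1 at 0.0659 and 0.0745, Polg and Mapk8ip1 to Dnmt1 at 0.0611 and 0.0745, and Adprh and Ppp1r15a to Dnmt3l at 0.0509 and 0.0614. Among the Tet genes, Cggbp1 (0.0655) and Cdc23 (0.0709) were nearest to Tet1, Ctbp2 (0.0785) and Ankhd1 (0.0957) to Tet2, and Setd6 (0.0971) and Zfp688 (0.101) to Tet3. Ints9 and Nup35 were nearest to Tdg at 0.143 and 0.160, and 39.0% of the words of Nup35 occur in other transcripts. No other of the 9 genes was allowed as a neighbour.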

How the data were processed

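Gene expression was analysed in 9 RNA-seq libraries, 3 each of WT, KO and KO_PAPC EBs, grouped by their titles. The deposited values were raw read counts per Ensembl gene, which the authors made from 51-cycle single-end reads of a kit that does not keep strand. The submitters' processing notes name bcl2fastq 2.20.0.422, STAR 2.7.2b, featureCounts 1.6.5 and the build GRCm38 for all 9 libraries. The methods describe this pipeline for KO and KO_PAPC and an earlier one for KO and WT. Reads with several places or several genes were not counted. No column of per-sample values was left unused. Symbols and positions came from GENCODE M21, and 241 of 55471 IDs had no match.

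Each contrast was fitted on its own 6 libraries with edgeR 4.0.16 in R 4.3.3 (filterByExpr, TMM, quasi-likelihood test, Benjamini-Hochberg over all tested genes, called at adjusted p under 0.05). Scaled CPM used TMM sizes of all 9 libraries. On simulated counts for KO against WT over the 55471 genes, edgeR called 97.0% of 200 changed genes with 5 false calls. The simulation changed few genes, all well counted, by more than several of the changes reported here, with a fixed spread between libraries. It therefore does not give the rate of false calls in these data, where most tested genes were called. Alternatives were DESeq2 1.42.0, other scalings and filters, a joint fit, a replicate block, a minimum fold change and leaving out each library. Replicates differed by more than counting noise. The gene lists, the markers, the motifs and the 9 genes were chosen with earlier results of these data known. Named besides the 9 genes were, per list and contrast, the 3 called genes with the smallest adjusted p, any gene needed to read a count of 5 or fewer, and the 2 nearest genes of each of the 9, of which 1 is not reported here. Dnmt3c, Gm5648, Gm9855, Tdg-ps, Gm5597, Glt8d2 and Aire were named for shared or overlapping sequence.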

Additional observations from a re-analysis of the deposited data

How the results depend on the processing

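Each of the 27 fold changes of the 9 genes was recomputed under 14 alternatives per contrast, 6 of which leave out 1 library. Of 378 values, 340 kept their direction and their side of the threshold, 28 were no longer called, 6 became called and 4 changed sign. The sign changes were Dnmt1 in KO_PAPC against KO, at 0.018 with no filter beyond 1 count and 0.038 without KO_PAPC replicate 1, and, on library totals, Tet2 (-0.070) and Tet3 (-0.073) in KO_PAPC against WT, none of them called. Requiring a fold change over 2 left 0, 2 (Dnmt3a and Dnmt3b) and 1 (Dnmt3b) of the 9 genes called in KO against WT, KO_PAPC against KO and KO_PAPC against WT, with 1587, 3554 and 1335 of all genes and 15, 39 and 26 of the list genes, which were 127, 138 and 131 without that minimum. On library totals, 5317 genes were higher and 8684 lower in KO_PAPC against KO, and 3616 and 8341 in KO_PAPC against WT. When 1 library was left out, between 8 and 9, 7 and 7, and 6 and 8 of the 9 genes were called, with between 12382 and 12820, 13785 and 14137, and 11208 and 11654 of all genes and between 120 and 128, 136 and 139, and 127 and 130 list genes, and Dnmt1 in KO_PAPC against KO ranged from -0.017 to 0.038. DESeq2 called 8, 7 and 6 of the 9.

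The replicate numbers were not taken to pair the libraries: deviations of same-numbered libraries correlated at -0.324 to 0.012 in KO against WT and KO_PAPC against KO, and at 0.451, 0.320 and 0.035 in KO_PAPC against WT. A library correlated best with its own number in the other group in 4 of 6 cases of the last contrast and in 5 of 18 over all. With a replicate block 9, 7 and 8 of the 9 genes, 12587, 13822 and 12223 of all genes and 126, 138 and 131 list genes were called. Tet3 in KO_PAPC against WT became called with the block (edgeR adjusted p = 0.0297), with RLE size factors (0.0428) and in the joint fit (0.0413). Ranking likeness by Pearson correlation kept 2 of the 18 nearest genes. Of 27 places in the order of levels per length, 20 were kept with the longest coding transcript, 27 with TMM scaling and 25 with a length of unshared words, the last added after seeing the data. Counts of shared sequence and the low counts of Tdg limit that gene most.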
